A study of Mus musculus with 78 samples.

Results

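The snRNA-activating protein complex (SNAPc) and the factors that start transcription by RNA polymerase III were described by 10 genes, out of 55401 genes listed in each of 3 count tables. These were the 5 SNAPc subunit genes Snapc1, Snapc2, Snapc3, Snapc4 and Snapc5, the TFIIIB subunit genes Brf1, Brf2 and Bdp1, the TFIIIA gene Gtf3a, and the polymerase III subunit gene Polr3d. They were chosen by name, and all 10 passed the filter on low counts in every table. The cells were mouse embryonic stem cells of the E14TG2a line, kept in serum-free medium with LIF and inhibitors of MEK and GSK3. In all groups, controls included, both alleles of Zfp143 carried a C-terminal FKBP12 F36V degron with an HA tag and a cleavable GFP, so no group had untagged ZFP143. Addition of 500 nM dTAG-V1 degrades the tagged protein, and DMSO was the control. TT-seq, which sequences RNA labelled with 4-thiouridine (2 mM for 10 min), covered DMSO and 2, 6 and 24 h of dTAG-V1. An RNA-seq time course of polyadenylated RNA covered DMSO and 24, 48 and 72 h. Neither time course had a DMSO group for each time, so time in culture and time of depletion cannot be told apart. A further RNA-seq table held DMSO or dTAG-V1 for 24 h, each before and after 24 h of retinoic acid (RA) in differentiation medium, so that dTAG-V1 lasted 48 h in the cells given RA. There was no group with the medium change alone, so effects of RA and of medium cannot be told apart. Each group had 2 biological replicates, and p-values measure the spread between these.

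SNAPc binds the proximal sequence element in front of snRNA genes, where it recruits either RNA polymerase II or, where a TATA box follows, RNA polymerase III. SNAPC4 is the largest subunit and holds Myb repeats that touch DNA, SNAPC3 carries a zinc-binding domain, and SNAPC1 completes the core that is enough for DNA binding. SNAPC2 and SNAPC5 are accessory subunits. Polymerase III is brought to its promoters by TFIIIB, made of TBP, BDP1 and either BRF1 at tRNA and 5S genes or BRF2 at genes with promoters outside the transcribed part, such as those of U6, 7SK, RNase P and Y RNAs. TFIIIA is the zinc finger protein that recognises the 5S rRNA gene. ZFP143, also called Staf, binds upstream of many of the same small RNA genes.

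ZFP143 peaks lay at the promoters of Snapc1, Snapc3 and Snapc4, the 3 genes of the DNA-binding core, and at none of the other 7 members. A gene was counted as bound where a peak touched the stretch that starts 2000 bp ahead of a transcription start site (TSS) and ends 1000 bp after it, and had its centre within 2000 bp of that site. Of the 17870 genes tested in TT-seq, 13.8% were bound by this rule, and the peak list, a single list made with an antibody to HA, held 3189 peaks. The Snapc3 peak (chr4:83417379-83418023, mm10) was 97.5-fold enriched over input, with a −log10 q-value of 316, and ranked 133 in the list. Its summit lay 38 bp upstream of the Snapc3 start. The Snapc4 peak (chr2:26380528-26380839) was 22.4-fold enriched, close to the list median of 20.8, with its summit 22 bp upstream of the TSS. The Snapc1 peak (chr12:73964429-73964610) was 7.13-fold enriched, ranked 2796, and had its summit 1 bp from the nearest annotated TSS. The Snapc1 peak fell out when only peaks at or above the median enrichment were counted. The nearest peaks of the unbound members were 20.8 kb from the start of Bdp1, 31.5 kb from Brf2, 60.4 kb from Snapc2, 72.1 kb from Brf1, 154 kb from Polr3d, 256 kb from Gtf3a and over 1 Mb from Snapc5. CTCF peaks, found at 19.5% of the promoters of tested genes, lay at Snapc5 and Brf1, with centres 228 bp downstream and 14 bp upstream of the TSS, and at no other member.

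The letters at the bound promoters are shown because the strongest peak differed from the others in them. The elements searched were ACTACA followed after any 2 letters by TCCC, and CCCNNNATG, both parts of the known ZFP143 site, each on both strands. Stretches directly before the TSS are given on the strand of the gene and read from the GRCm38.p6 genome, with matches on either strand in capitals. The Snapc1 stretch ends at its outermost annotated start, which lies upstream of the TSS nearest to the summit.
Snapc3 (chr4:83417574-83417723, plus strand): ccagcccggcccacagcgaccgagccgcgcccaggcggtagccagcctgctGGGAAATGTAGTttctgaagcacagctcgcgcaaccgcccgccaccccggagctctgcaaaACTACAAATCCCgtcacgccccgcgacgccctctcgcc
Snapc4 (chr2:26380654-26380753, minus strand): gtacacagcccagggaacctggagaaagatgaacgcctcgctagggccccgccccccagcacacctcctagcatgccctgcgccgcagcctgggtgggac
Snapc1 (chr12:73964381-73964480, plus strand): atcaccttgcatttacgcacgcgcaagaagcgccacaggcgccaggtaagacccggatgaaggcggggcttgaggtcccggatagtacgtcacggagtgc
The Snapc3 stretch held ACTACAAATCCC on the strand of the gene, ending 27 bp before the start, and ACTACATTTCCC on the other strand, 88 bp before it. The 100 bases on either side of the Snapc4 and Snapc1 summits held neither element. Only exact letters were searched, so a site with a changed letter was not counted. The paper reports known ZFP143 motifs in nearly all of its peaks, so lack of a match here does not show lack of a site. ACTACA followed by TCCC was found in 29.8% of all peaks within 100 bases of the summit, and in 1.81% of 32851 RefSeq promoters, which run from 250 bases before to 50 after the gene start. CCCNNNATG was found in 30.8% of the peaks and 12.4% of the promoters. In the 7 member promoters matched in that RefSeq table (GRCm38.p6; Brf1, Brf2 and Polr3d were not matched), Snapc3 held 2 copies of the former element, Snapc2 held 1 copy of CCCNNNATG, and the other 5 held neither.

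**Figure D1:**
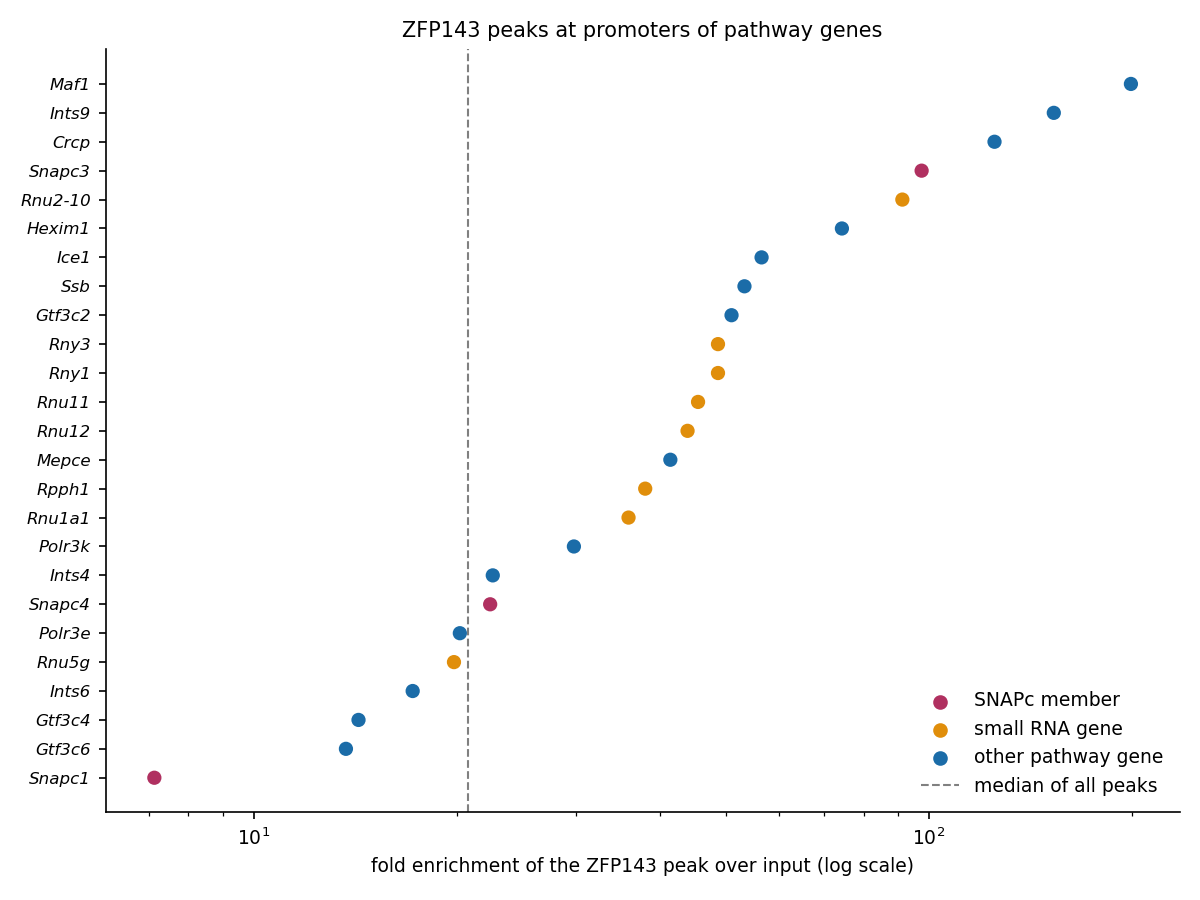
Fold enrichment over input (x axis, log scale) of the ZFP143 peak at the promoter of each bound gene of the pathway lists, with SNAPc members in red, small RNA genes in orange, other genes in blue and the list median of 20.8 as a dashed line. Snapc3 at 97.5 stands well above that median, Snapc4 at 22.4 is beside it and Snapc1 at 7.13 is the lowest of the genes drawn.

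Each member was a single annotated gene (GENCODE vM21, mm10). Snapc1 (ENSMUSG00000021113.5) lay at chr12:73964481-73988966 and shared 3895 bp with Gm49321 on the same strand. Snapc3 (ENSMUSG00000028483.13, chr4:83417724-83467676) shared 11997 bp with Psip1 on the other strand, and Snapc4 (ENSMUSG00000036281.13, chr2:26362765-26380653) shared 9188 bp with Gm13562, also antisense. Brf1 (ENSMUSG00000011158.8, chr12:112960085-113000704) held Btbd6 on the other strand over 2464 bp, and Gtf3a (ENSMUSG00000016503.17, chr5:146948657-146955614) shared 4042 bp with the antisense end of Mtif3. Counting in TT-seq used strand. For the RNA-seq tables the strand column taken is not given in the sources used here, so reads of these antisense partners may not be separated there.

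The libraries held 9721568 to 16532077 counts in TT-seq, 10261851 to 15316700 in the RNA-seq time course and 13890761 to 27089033 in the RA table, and values below are CPM (counts scaled to a common library total), adjusted by edgeR's TMM factors. The summed level of 6 stem cell markers was 2320 to 2730 CPM in every TT-seq library, 4130 to 4200 CPM in RNA-seq with DMSO and 2750 to 2770 CPM at 72 h of dTAG-V1. It was 4960 to 5240 CPM with DMSO in the RA table, 587 to 881 CPM with DMSO and RA, and 1050 to 1260 CPM with dTAG-V1 and RA, and the sum of 4 RA response genes was 3.52 to 3.55, 501 to 587 and 237 to 261 CPM in the same groups. All of these were bulk samples, so fewer cells of a type and less RNA per cell cannot be told apart. Primitive endoderm, 2-cell, neural and fibroblast markers were also scored. The endoderm sum was 5.60 to 5.99 CPM with DMSO and 10.8 to 11.6 CPM at 72 h, and the 2-cell sum was 29.4 to 30.8 CPM with DMSO and RA and 116 to 138 CPM with dTAG-V1 and RA. In the RNA-seq time course the neural sum was 2.76 to 3.06 CPM with DMSO and 9.48 to 10.9 CPM at 72 h, and the fibroblast sum was between 2.48 and 5.52 CPM in all its libraries. With RA, depleted cells against DMSO cells had 25.9 to 26.2 against 6.54 to 10.3 CPM for the fibroblast sum, 42.9 to 43.6 against 19.6 to 21.4 CPM for the endoderm sum and 35.9 to 36.6 against 76 to 84.5 CPM for the neural sum. These shifts go with the groups in which Snapc3, Brf1 and Gtf3a are compared after RA. The part of these shifts in the values of the members was not tested. RNA of the targeted gene Zfp143 rose by 1.17 on the log2 scale at 2 h in TT-seq (adjusted p = 0.00105, edgeR) and by 1.30 at 72 h in RNA-seq (adjusted p = 3.4e-12). The degron acts on the protein, so these values do not check its loss.

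In control cells the members spanned a wide range of levels. Per kb of merged exon and on the CPM scale, Gtf3a had the highest level in the RNA-seq DMSO libraries, at 26.6 ± 0.905 (SD, n = 2). Snapc5 (19.9 ± 0.559) and Snapc2 (19.2 ± 1.97), the accessory subunits, followed and did not differ beyond their spread, and Polr3d came next at 14.1 ± 0.113. Bdp1 (8.91 ± 0.839), Brf2 (8.56 ± 0.0106) and Snapc4 (8.19 ± 0.0297) lay close together, Bdp1 not differing from the other two beyond its spread. Snapc3 was at 5.74 ± 0.294, Brf1 at 4.6 ± 0.0339 and Snapc1 was the lowest at 1.78 ± 0.306, so that the 3 core subunit genes were below both accessory subunit genes on this scale. This order rests on the merged exon length. In CPM not divided by length, Snapc4 (54.2) and Snapc3 (38.8) were above Snapc2 (33.9) and Snapc5 (24.5), and Snapc1 (14.1) was below them. The RA table gave the same order at the ends in its DMSO libraries, with Gtf3a at 26 ± 0.460 and Snapc1 at 1.81 ± 0.152 CPM per kb.

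In labelled RNA, none of the 10 members passed the test at 2 h of ZFP143 depletion, where 2.43% of tested genes were called lower and 0.168% higher (edgeR quasi-likelihood test, adjusted p under 0.05 and a log2 change over 0.5). The 3 members with the smallest p had values below 0. Snapc3 had 81.7 and 102 CPM in the DMSO libraries and 64.6 and 58.1 CPM at 2 h. Both treated libraries thus lay below both controls, as they did for 20.6% of tested genes. The log2 change of Snapc3 was -0.58 (SE 0.14, adjusted p = 0.0871), or 66.8% of the control level. With the replicate number as a block the adjusted p was 0.0357, and Snapc3 counted as lower at this change. Snapc4 was at 45.0 and 40.4 CPM with DMSO and at 32.1 and 28.9 CPM at 2 h (-0.48, SE 0.14, adjusted p = 0.159). Brf2, which has no peak, was at 26.5 and 25.7 CPM with DMSO and 16.5 and 19.3 CPM at 2 h (-0.54, SE 0.16, adjusted p = 0.194). Snapc1, with the weakest of the peaks, was at 34.1 and 33.9 CPM with DMSO and at 34.1 and 36.9 CPM at 2 h. The remaining members had log2 changes from -0.44 for Snapc2 to 0.18 for Bdp1.

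At 6 h Snapc4 fell, at 27.7 and 26.9 CPM (-0.65, SE 0.14, adjusted p = 0.0424), and was the only member called among 10, against 2.83% of tested genes called lower and 0.397% higher. This call was at the edge of the threshold. Leaving out DMSO replicate 1, DMSO replicate 2, 6 h replicate 1 or 6 h replicate 2 gave adjusted p-values of 0.137, 0.0771, 0.263 and 0.265, with log2 changes of -0.58, -0.71, -0.67 and -0.62. Snapc3 was at 66.2 and 59.7 CPM at 6 h (-0.55, SE 0.14, adjusted p = 0.0872, and 0.0337 with the replicate block, where it was called), and Gtf3a was at 12.7 and 16.2 CPM against 21.7 and 20.0 CPM with DMSO (-0.53, SE 0.19, adjusted p = 0.207). At 24 h no member passed, where 4.09% of tested genes were lower and 2.02% higher. Snapc3 then stood at 76.1 and 74.8 CPM (-0.28, adjusted p = 0.287), still under both control libraries, and Snapc4 at 32.3 and 30.9 CPM (-0.44, adjusted p = 0.108). Over all tested genes 24.1% lay below both controls at 24 h. The median over the 5 SNAPc genes was -0.44 at 2 h, -0.20 at 6 h and -0.28 at 24 h, beside 0.01 over all tested genes each time. Between 2 and 24 h no member differed, and 0.056% of tested genes were called lower and 0.0336% higher. Snapc3 had 0.30 (SE 0.14, adjusted p = 0.359) in that contrast and Brf2 had 0.45 (SE 0.16, adjusted p = 0.247).

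**Figure D2:**
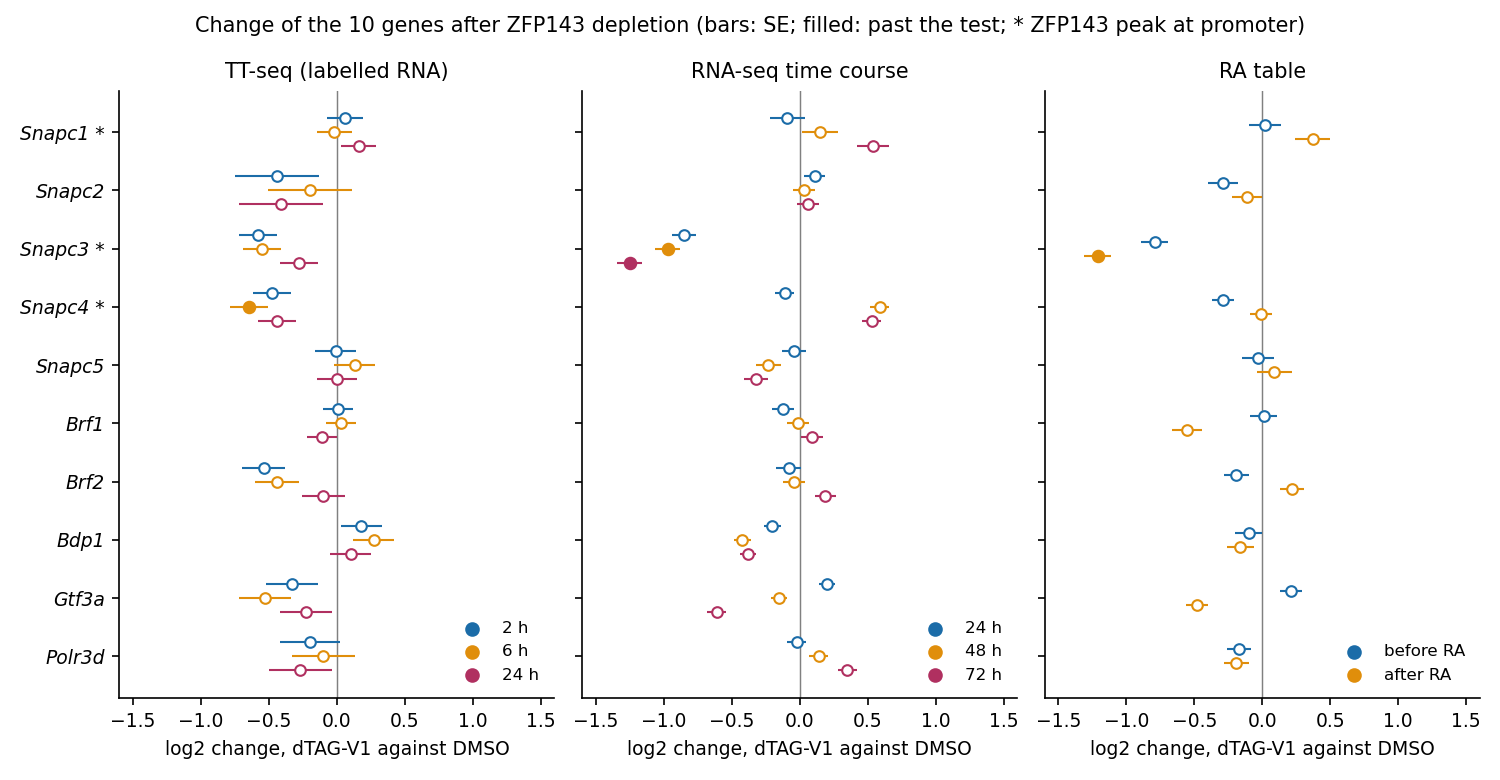
Log2 change of dTAG-V1 against DMSO (x axis) with its SE (bars) for the 10 members in TT-seq, the RNA-seq time course and the RA table; filled points passed the test, and asterisks mark members with a ZFP143 peak. Snapc3 lies to the left of 0 in all 8 comparisons, from -0.28 to -1.25, while Snapc4 is at -0.44 to -0.65 in TT-seq and at 0.53 to 0.59 in RNA-seq at 48 and 72 h.

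Of the small RNA genes that SNAPc and polymerase III serve, 8 of the 16 listed had a ZFP143 peak at the promoter, beside 13.8% of all genes tested in TT-seq. All 8 were among the 11 that passed the filter there. These were Rny1 and Rny3 for Y RNAs (48.7-fold each), Rpph1 for the RNase P RNA (38.0-fold), and the snRNA genes Rnu2-10 (91.3-fold), Rnu11 (45.5-fold), Rnu12 (43.9-fold), Rnu1a1 (35.9-fold) and Rnu5g (19.8-fold). The unbound ones of the 11 were Rn7sk, Rmrp and Rnu7, with the nearest peaks 66.6, 14.7 and 87.8 kb away. Only uniquely mapped reads were kept in ChIP-seq, so a peak may be missed at listed genes that have near-identical copies. Around the summits upstream of both Y RNA genes CCCNNNATG was present, shown here on the strand of the gene with the match in capitals.
Rny1 (chr6:47788332-47788412, minus strand): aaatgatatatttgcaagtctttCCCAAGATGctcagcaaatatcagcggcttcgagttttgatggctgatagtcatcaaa
Rny3 (chr6:47781362-47781442, plus strand): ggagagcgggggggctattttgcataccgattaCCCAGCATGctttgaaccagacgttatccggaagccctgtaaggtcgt
The matches were CCCAAGATG in front of Rny1, with its nearest base at -201 from the gene start, and CCCAGCATG in front of Rny3, at -221.

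Of these 11 genes none was called at 2 or 6 h in TT-seq, and at 24 h 2 were lower and 3 higher. Of all tested genes 2.43% were lower and 0.168% higher at 2 h, and 4.09% lower and 2.02% higher at 24 h. Rny1 was at 8.59 and 13.03 CPM with DMSO and at 2.07 and 1.22 CPM at 24 h (-2.74, SE 0.46, adjusted p = 0.0115). Rny3 was at 7.34 and 14.6 CPM with DMSO and at 1.97 and 1.37 CPM at 24 h (-2.74, SE 0.48, adjusted p = 0.0138). Both Y RNA genes were thus low in each 24 h library, on 16 to 21 counts. At 2 h they had -1.08 and -1.11 (adjusted p = 0.347 and 0.354), and at 6 h, where their replicates were far apart, -0.44 and -0.22. The 24 h calls were lost without DMSO replicate 2 (-2.39 and -2.13, adjusted p = 0.0593 and 0.0646 for Rny1 and Rny3) and without 24 h replicate 2 (-2.38 and -2.48, adjusted p = 0.0767 and 0.0842). Rpph1 was at 206 and 115 CPM with DMSO and 105 and 73.1 CPM at 24 h (-0.85, SE 0.29, adjusted p = 0.133), and Rmrp, the RNase MRP RNA, had -0.61 (SE 0.29, adjusted p = 0.27). With the replicate block both were called lower at 24 h (Rpph1 -0.82, adjusted p = 0.00372; Rmrp -0.56, adjusted p = 0.039), and Rpph1 also at 6 h (-0.53, adjusted p = 0.0362). The gene of 7SK, the RNA that holds P-TEFb inactive, had -0.10 (SE 0.25, adjusted p = 0.86).

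At 24 h 3 spliceosomal snRNA genes were higher. Rnu1a1, a U1 gene, rose from 6.41 and 5.49 CPM to 12.8 and 14.7 CPM (1.21, SE 0.23, adjusted p = 0.0195), and Rnu2-10, a U2 gene, rose from 21.0 and 15.4 CPM to 38.1 and 40.9 CPM (1.12, SE 0.22, adjusted p = 0.0214). Rnu5g, a U5 gene, rose from 0.414 and 0.838 CPM to 2.95 and 2.89 CPM (2.15, SE 0.46, adjusted p = 0.0299), on 4 and 11 counts with DMSO. Values of the minor spliceosome genes were 0.18 for Rnu12 and -0.15 for Rnu11, and Rnu7, which serves histone mRNA processing, had 0.55 (adjusted p = 0.286). The Rnu5g call was lost without any of its 4 libraries (DMSO replicates 1 and 2, 24 h replicates 1 and 2; log2 changes 1.78, 2.80, 2.14 and 2.17). The Rnu1a1 call was lost without DMSO replicate 1, DMSO replicate 2 or 24 h replicate 2 (1.32, 1.12 and 1.12), and the Rnu2-10 call without DMSO replicate 2, 24 h replicate 1 or 24 h replicate 2 (0.93, 1.17 and 1.08). Genes of U1, U2 and U5 have near-identical copies, and only uniquely mapped reads were kept. Reads that fit several copies were thus left out, and the counts of these genes may be incomplete. Rmrp is annotated as a pair of overlapping genes with identical counts and was taken once. In the polyadenylated RNA tables only Rn7sk of these genes passed the filter, and there its counts rose with RA by 2.48 in DMSO cells and by 1.86 in depleted cells. Those libraries were made by selection of polyadenylated RNA, so counts of a polymerase III transcript in them need not follow its level.

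**Figure D3:**
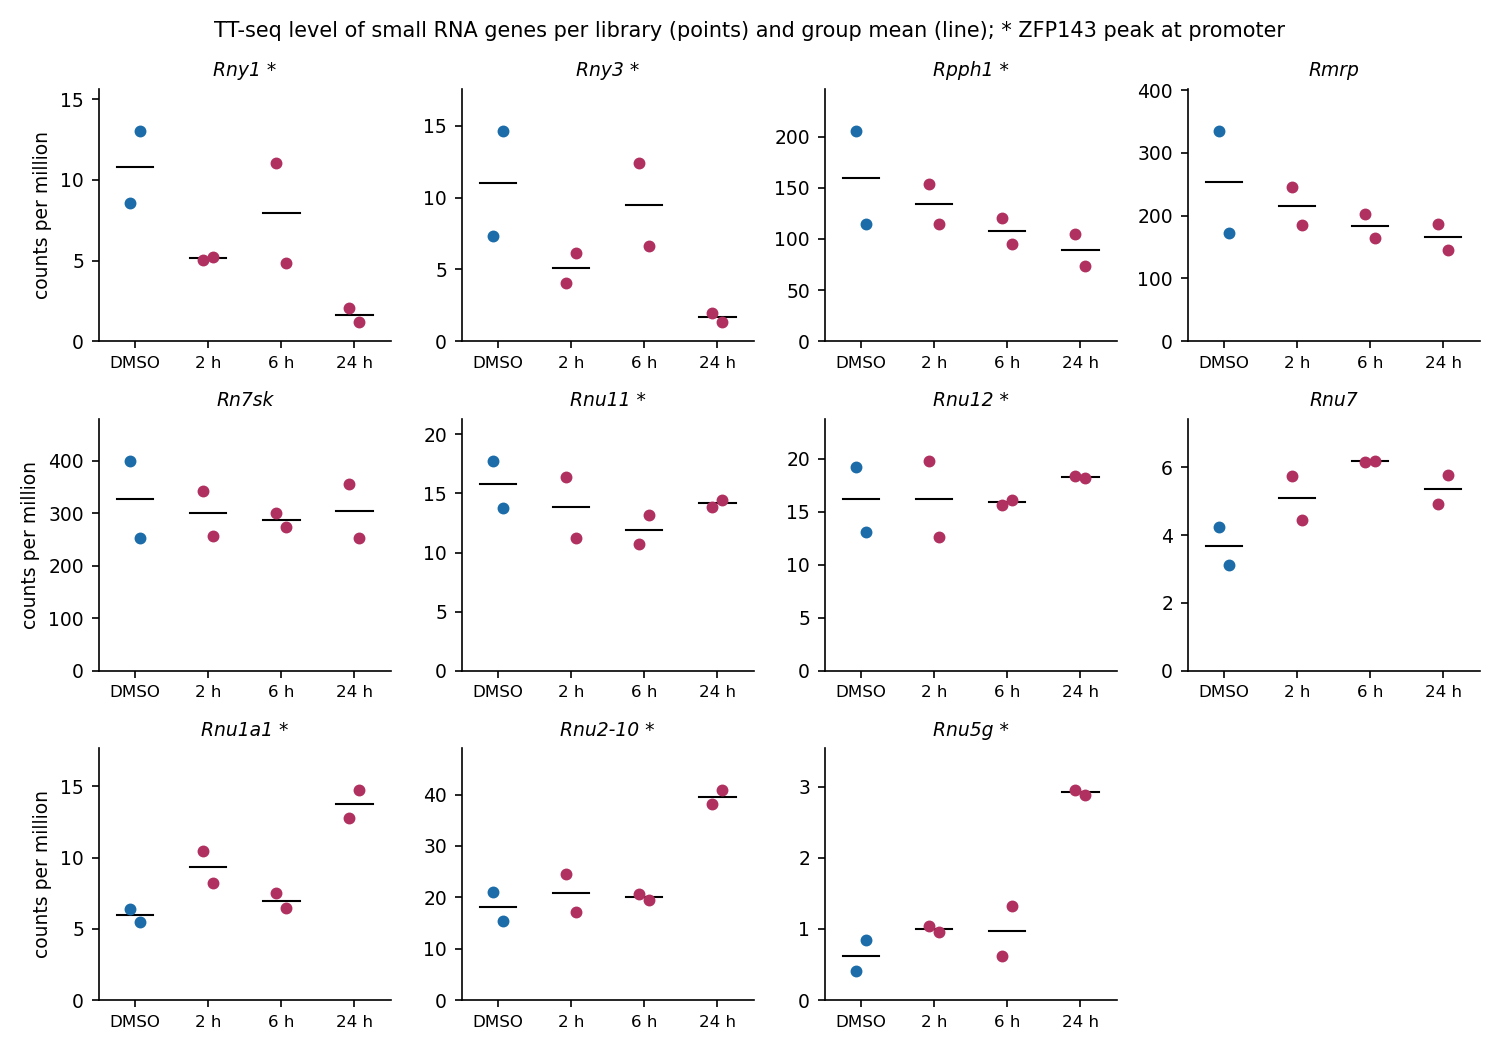
TT-seq level in CPM (y axis, from 0) of the 11 small RNA genes that passed the filter, for DMSO and 2, 6 and 24 h of dTAG-V1 (x axis); points are libraries, lines are means of 2, and asterisks mark a ZFP143 peak. Rny1 and Rny3 drop to between 1.22 and 2.07 CPM at 24 h, and Rnu1a1, Rnu2-10 and Rnu5g have their highest values there.

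In mature RNA, Snapc3 was the member with the largest decrease. It was at 40.2 and 37.4 CPM with DMSO, 22.8 and 20.2 CPM at 24 h, 20.7 and 18.7 CPM at 48 h, and 15.3 and 16.98 CPM at 72 h, and no treated library reached either control. Over all tested genes 34.6%, 40.2% and 41.8% lay below both controls at these times. At 24 h the Snapc3 log2 change of -0.85 (SE 0.09) missed the threshold of the test against a 1.5-fold change (glmTreat in edgeR, adjusted p under 0.01) with an adjusted p of 0.0144, and no member was called, against 3.41% of tested genes lower and 2.32% higher. At 48 h Snapc3 fell (-0.97, SE 0.09, adjusted p = 1.9e-04), as did 7.71% of tested genes while 10.5% rose. This call was lost with scaling to library size alone (-0.77, adjusted p = 0.03) and with DESeq2 (-0.99, adjusted p = 0.0328). At 72 h Snapc3 fell to 41.9% of its control level (-1.25, SE 0.09, adjusted p = 9.4e-08), with 12% of tested genes lower and 13.7% higher. The overlapping antisense gene Psip1 had a log2 change of -0.24 at 72 h.

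Snapc4, the other subunit gene with a peak above the list median, was not called in RNA-seq. Its values were below 0 in labelled RNA at all 3 times and in RNA-seq at 24 h (-0.11), and above 0 in RNA-seq at 48 and 72 h. It was at 54.1 and 54.4 CPM with DMSO, 46.6 and 54.4 CPM at 24 h, 83.3 and 79.8 CPM at 48 h, and 76.6 and 79.8 CPM at 72 h. All 48 and 72 h libraries were above both controls, as was so for 41.5% and 43.3% of tested genes at those times. At 48 h scaling to library size alone made Snapc4 a call (0.79, adjusted p = 0.00349). The log2 changes were 0.59 (SE 0.07, adjusted p = 0.674 against a 1.5-fold change) at 48 h and 0.53 (SE 0.07, adjusted p = 1) at 72 h. With the thresholds used for TT-seq, which test against no change, Snapc4 was called higher at both times and Snapc1 at 72 h. Snapc1, at 12.4 and 15.8 CPM with DMSO, was at 21.7 and 20.1 CPM at 72 h (0.54, SE 0.12, adjusted p = 0.787). Gtf3a was at 66.2 and 69.5 CPM with DMSO, 77.1 and 78.8 CPM at 24 h, 59.9 and 62.3 CPM at 48 h, and 42.9 and 45.6 CPM at 72 h (-0.61, SE 0.07, adjusted p = 0.357 at 72 h). Bdp1 had -0.20, -0.42 and -0.38 at the 3 times, Snapc5 had -0.04, -0.23 and -0.32, Polr3d had -0.02, 0.14 and 0.35, and Snapc2, Brf1 and Brf2 stayed between -0.12 and 0.19. Scaling to library size alone moved the median of all genes by up to 0.234 in this table and 0.394 in the RA table, and the values here are relative to TMM scaling, where that median was at most 0.065 in these contrasts with DMSO.

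Between 24 and 72 h, 3 members differed (adjusted p under 0.05 and a log2 difference over 0.5), in a contrast where 16.7% of tested genes were lower and 18.7% higher at the later time. Snapc1 (0.63, SE 0.13, adjusted p = 6.9e-05) and Snapc4 (0.64, SE 0.07, adjusted p = 4.3e-09) were higher at 72 h, and Gtf3a was lower (-0.81, SE 0.07, adjusted p = 1.4e-11). Snapc3 differed by -0.41 (SE 0.11, adjusted p = 0.0014), which is below the limit of 0.5. Polr3d had 0.37, Brf2 0.27, Brf1 0.21, Snapc2 -0.05, Bdp1 -0.18 and Snapc5 -0.29.

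**Figure D4:**
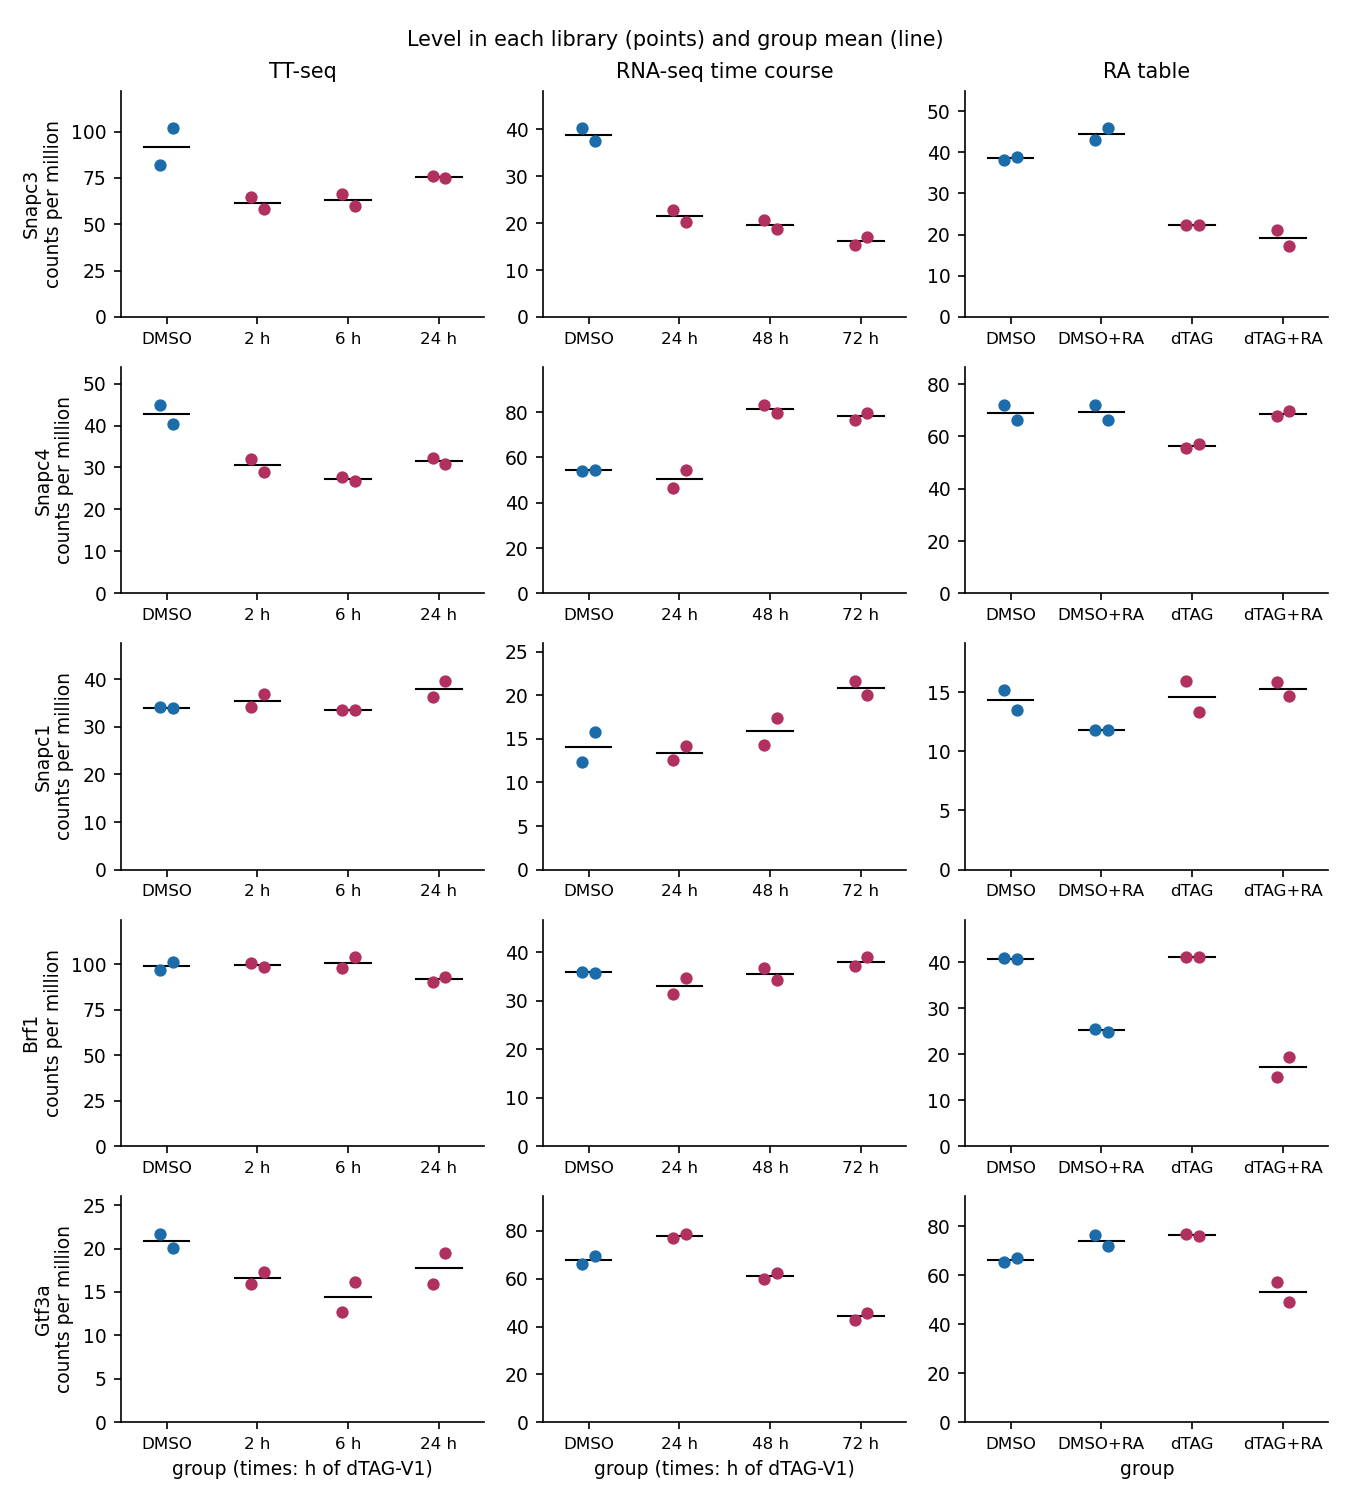
CPM (y axes, from 0) of Snapc3, Snapc4, Snapc1, Brf1 and Gtf3a in every library of the 3 tables (blue, DMSO groups; red, dTAG-V1 groups; line, mean of 2). Snapc3 is lower in every dTAG-V1 library than in every DMSO library of its table, and Brf1 drops to 15.0 and 19.3 CPM with dTAG-V1 and RA. In single contrasts of dTAG-V1 with DMSO, 20.6% to 41.8% of tested genes had both treated libraries below both controls.

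In the RA table, Snapc3 gave 38.2 and 38.9 CPM with DMSO and 22.2 and 22.3 CPM with dTAG-V1 for 24 h, a log2 change of -0.79 (SE 0.10) with an adjusted p of 0.0695 in the test against 1.5-fold. No member was called before RA, against 3.66% of tested genes lower and 2.74% higher. After RA it was at 42.9 and 45.9 CPM with DMSO and 21.0 and 17.3 CPM with dTAG-V1, and it fell (-1.21, SE 0.10, adjusted p = 5.1e-06), as did 7.36% of tested genes while 9.1% rose. It was the single member called. Snapc4 was at 72.2 and 66.5 CPM with DMSO and RA and at 67.9 and 69.6 CPM with dTAG-V1 and RA (-0.01, SE 0.08). The other members lay between -0.55 for Brf1 and 0.37 for Snapc1 after RA, and between -0.29 for Snapc2 and Snapc4 and 0.21 for Gtf3a before it.

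RA in differentiation medium lowered Brf1, the TFIIIB subunit of tRNA and 5S genes, in depleted cells. Brf1 was at 40.8 and 40.7 CPM with DMSO, 25.5 and 24.7 CPM with DMSO and RA, 41.0 and 41.0 CPM with dTAG-V1, and 15.0 and 19.3 CPM with dTAG-V1 and RA. With RA it changed by -0.70 in DMSO cells (SE 0.10, adjusted p = 0.0959), where no member passed, and it fell by 1.26 on the log2 scale in depleted cells (SE 0.10, adjusted p = 7.9e-07), where it was the only member called. Of all tested genes 18.1% fell and 25.8% rose with RA in DMSO cells, and 18.5% fell and 25% rose in depleted cells. Bdp1 had -0.51 and -0.57, Snapc5 -0.55 and -0.43, Snapc2 -0.57 and -0.40, Brf2 -0.46 and -0.05, and Polr3d 0.28 and 0.26 in DMSO and depleted cells. The comparisons before and after RA share these libraries.

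Tested directly, the RA effect differed between depleted and DMSO cells for Brf1 and Gtf3a, in an interaction that called 18% of tested genes lower and 13.7% higher. The difference for Gtf3a was -0.69 (SE 0.11, adjusted p = 5.7e-05), from 65.4 and 67.1 CPM with DMSO and 76.4 and 72.1 CPM with DMSO and RA, against 77.0 and 76.1 CPM with dTAG-V1 and 57.1 and 49.2 CPM with dTAG-V1 and RA. For Brf1 it was -0.56 (SE 0.15, adjusted p = 0.00417), and it was lost without dTAG-V1 and RA replicate 1 (-0.33, adjusted p = 0.0824) and with scaling to library size alone (-0.48, adjusted p = 0.0145). Btbd6, which overlaps Brf1 on the other strand, had an interaction of -0.53 (adjusted p = 0.0166). Mtif3, the antisense neighbour of Gtf3a, had 0.06. The interaction of Snapc3 was -0.42 (SE 0.14, adjusted p = 0.0217), below the limit of 0.5. Without dTAG-V1 and RA replicate 1 it was -0.50 with an adjusted p of 0.0121 and counted as called. Brf2 had 0.41, Snapc1 0.34 and Snapc4 0.28, also under the limit.

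Other genes of the pathway give the setting of these values, from lists of 48 further genes for polymerase III and shared subunits, TFIIIC, regulators, the little elongation complex and Integrator. With the members these made 58 genes, of which 17 had a ZFP143 peak at the promoter and 41 had none. In TT-seq every called gene among them was lower and had a peak, 3 of 17 at 2 h, 4 of 17 at 6 h and 4 of 17 at 24 h, with 0 of 41 without a peak. Over all tested genes the shares called lower at 2, 6 and 24 h were 16.4%, 17.9% and 21.8% of bound genes, beside 0.208%, 0.422% and 1.25% of unbound genes, so that 23.5% of the bound pathway genes at 24 h was close to the share of all bound genes. The median log2 change of the 17 was -0.35 at 2 h, beside -0.28 over all 2463 bound genes, and that of the 41 was -0.03, beside 0.03. In RNA-seq at 72 h, 4 of the 17 and 3 of the 41 were lower and none was higher. Of all bound and unbound genes 25.6% and 9.62% were lower, and 5.41% and 15.2% were higher.

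Crcp, which encodes a small polymerase III subunit and has a 125-fold enriched peak, stood far from the rest. It was at 82.2 and 76.1 CPM with DMSO in TT-seq and at 11.1 and 8.86 CPM at 2 h (-2.99, SE 0.20, adjusted p = 3.1e-04), and it had -2.95 at 6 h and -2.99 at 24 h. In RNA-seq its log2 changes were -2.44, -2.08 and -2.51 after 24, 48 and 72 h, and in the RA table they were -2.53 before and -1.95 after RA, all called. Polr3e, another subunit gene with a peak (20.2-fold), fell at 2 h in TT-seq (-0.64, SE 0.10, adjusted p = 0.0138) and had -0.62 at 6 h and -0.59 at 24 h, and Ints9 of Integrator (153-fold) fell at 2 h (-0.73, SE 0.11, adjusted p = 0.00931), with -0.60 at 6 h and -0.59 at 24 h. The 2 h calls of both were lost without DMSO replicate 2, 2 h replicate 1 or 2 h replicate 2, with Polr3e at -0.65, -0.66 and -0.62 and Ints9 at -0.67, -0.75 and -0.69. At 6 h the Polr3e call was lost without either 6 h library (-0.61 and -0.64), and the Ints9 calls were lost without DMSO replicate 2 or either treated library at 6 h (-0.55, -0.62 and -0.57) and at 24 h (-0.53, -0.56 and -0.61). Ssb, which encodes the La protein that binds the ends of new polymerase III transcripts (53.3-fold), fell at 24 h (-0.82, SE 0.20, adjusted p = 0.0455), a call lost without DMSO replicate 2 (-0.54), 24 h replicate 1 (-0.80) or 24 h replicate 2 (-0.82) and with library size alone (-0.76).

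In RNA-seq, Polr3k (29.8-fold peak) fell, with log2 changes of -1.13 at 24 h and -1.19 at 72 h. Polr3g and Polr3gl, which encode alternative forms of the same subunit and have no peak, did not move together. Polr3g fell by 1.08 at 48 h and 1.12 at 72 h. Polr3gl rose by 1.35 at 24 h and 1.05 at 48 h, from 5.42 and 6.91 CPM with DMSO to 15.7 and 16.2 CPM and then 12.7 and 13.2 CPM, and was at 8.05 and 7.84 CPM at 72 h. The Polr3gl call was lost with DESeq2 at both times (1.35 and 1.05), and at the later of them if either DMSO replicate 1 (0.90) or 48 h replicate 2 (1.02) was dropped. At 48 h Polr1d, a subunit shared with polymerase I, fell by 1.15. From 24 to 72 h Polr3gl (-1.0) and Polr3g (-0.61) were lower and Hexim1, an inhibitor of P-TEFb that acts with 7SK, was higher (1.18). Among the 6 TFIIIC genes none was called in TT-seq or the RNA-seq time course, although Gtf3c2, Gtf3c4 and Gtf3c6 had peaks, and their median was -0.05 at 2 h in TT-seq and 0.01 at 72 h in RNA-seq. Of the 4 genes of the little elongation complex none was called there either (medians 0.03 and 0.30). Maf1, the repressor of polymerase III, had the strongest peak of the lists (199-fold) and was not called in any comparison. Its log2 changes in TT-seq were below 0 with wide errors, at -0.62 (SE 0.34) at 2 h, -0.71 (SE 0.35) at 6 h and -0.70 (SE 0.35) at 24 h.

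With RA, 5 of 10 further polymerase III subunit genes, 5 of 7 shared subunit genes and 5 of 14 Integrator genes fell in DMSO cells and none of them rose, with medians of -0.77, -0.98 and -0.57, beside 18.1% of all tested genes lower, 25.8% higher and a median of 0.03. Of the other lists, 1 of 6 TFIIIC genes and 2 of 7 regulators fell, 1 of 4 genes of the little elongation complex rose, and 0 of 5 SNAPc and 0 of 4 TFIIIB and TFIIIA genes were called. In depleted cells 2 of 10, 6 of 7 and 3 of 14 fell, beside 18.5% of all tested genes, as did 2 of 6 TFIIIC genes, 2 of 7 regulators and 1 of 4 TFIIIB and TFIIIA genes, and no SNAPc or little elongation complex gene was called. Hexim1 had the greatest decrease in DMSO cells (-1.94, SE 0.08), followed by Ints5 (-1.82) and Ints9 (-1.51), and Ice2 rose (0.85), a call lost without DMSO replicate 2 (0.71), with DESeq2 (0.84) and without the filter (0.82). In depleted cells Hexim1 was not called (-0.51), and the interaction of Hexim1 was 1.43 (SE 0.11, adjusted p = 4.9e-09). In those cells Ints5 (-1.49) and Polr2f (-1.45) fell. The interaction was also called for Ints9 (1.10), Polr3c (0.69), Ice2 (-0.93) and Polr1d (-0.61), the last being lost without dTAG-V1 and RA replicate 2 (-0.49). Before RA, dTAG-V1 against DMSO gave -0.91 for Ssb, -0.86 for Ints9 and 1.44 for Polr3gl. Of these calls, Ssb was lost without dTAG-V1 replicate 1 (-0.86) and with library size alone (-0.77), and Ints9 without DMSO replicate 2 (-0.77), dTAG-V1 replicate 1 (-0.83) or dTAG-V1 replicate 2 (-0.88), with library size alone (-0.73) and with DESeq2 (-0.89). After RA, dTAG-V1 against DMSO gave 1.86 for Polr3gl, 1.17 for Hexim1 and 0.89 for Zc3h8, all called higher, and -1.18 for Polr3k and -0.88 for Polr3e, called lower. The Zc3h8 call was lost without DMSO and RA replicate 2 (0.81), dTAG-V1 and RA replicate 1 (0.92) or replicate 2 (0.91), with DESeq2 (0.92) and without the filter (0.85), and the Polr3e call with library size alone (-0.67) and DESeq2 (-0.85).

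**Figure D5:**
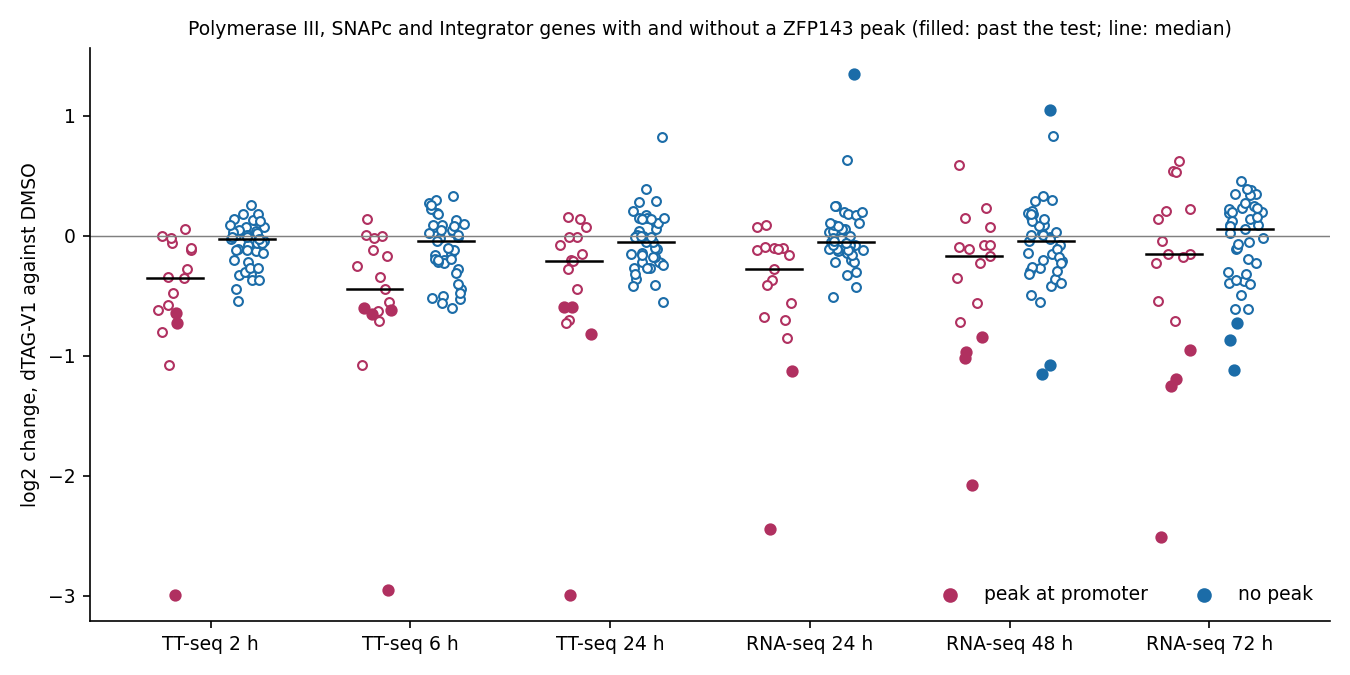
Log2 change of dTAG-V1 against DMSO (y axis) for the 58 pathway genes at each time of TT-seq and the RNA-seq time course (x axis), split by a ZFP143 peak at the promoter (red, 17 genes) or none (blue, 41 genes); filled points passed the test and lines are medians. Crcp is the lowest red point throughout, between -2.08 and -2.99, and the filled points in TT-seq are all red.

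Across the 24 libraries, with log2 CPM centred within each table, the genes most like Snapc3 out of 12811 tested in all tables were Thoc7 (Pearson r = 0.945), Tfpi (0.94) and Map2k6 (0.938). These values are a description, since the points share libraries, treatments and time points. Among the members themselves, the highest correlations were those of Snapc5 with Bdp1 (0.752), Brf1 with Bdp1 (0.715) and Snapc5 with Brf1 (0.609). The lowest were those of Bdp1 with Polr3d (-0.589), Snapc1 with Snapc3 (-0.576) and Snapc1 with Gtf3a (-0.563).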

How the data were processed

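Per the study's methods, the authors aligned reads to mm10 with STAR and deposited whole-number counts per gene (for TT-seq by HTSeq over whole genes and by strand, leaving out duplicates and reads with mapping quality up to 10; STAR gene counts for RNA-seq). The authors also deposited peak lists from MACS2 (q of 0.01, against input), with a fold enrichment ratio and a −log10 q-value for each ZFP143 peak, and 4C files, not used here. A gene was kept where 4 or more of a table's 8 libraries had over 10 counts (17870, 13925 and 15915 genes in TT-seq, RNA-seq and the RA table), scaled by TMM and tested in edgeR 4.0.16 over all groups of the table, adjusted by Benjamini-Hochberg over all tested genes: quasi-likelihood test for TT-seq, contrasts between times and the interaction (adjusted p under 0.05, log2 over 0.5), glmTreat against 1.5-fold otherwise (adjusted p under 0.01). DESeq2 1.42.0 was an alternative, and the steps were tested on simulated data. Members and lists were chosen with earlier results of these data known. All members are named, and of other list genes the 3 greatest decreases and increases called per comparison, besides Zfp143 and the small RNA genes in TT-seq; other genes named were chosen after their values were seen. Results of 1 list gene that this rule would name are not reported here. 1 of the 8 listed regulators, Zfp76, was not matched by symbol. Deviations of samples with the same replicate number correlated at 0.19 to 0.62 in all 6 pairs of TT-seq groups, so the numbers were taken as paired there, as a hint from the data and not from the labels, and blocked values stand beside the TT-seq results they change; in the RNA-seq time course (-0.05 to 0.06) and the RA table (-0.08 to 0.11) they were not. Alternatives were other scalings, no filter, DESeq2, a replicate block, each library left out, the TT-seq thresholds for RNA-seq, and narrower or stronger peaks.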

Additional observations from a re-analysis of the deposited data

Results flagged for a closer look

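In the RNA-seq time course 3 members differed between 24 and 72 h of dTAG-V1, by the quasi-likelihood test of edgeR on the difference itself. Of all tested genes 16.7% were lower and 18.7% higher at 72 h in that contrast. No DMSO group matched each time, so time in culture and time of depletion cannot be told apart. The difference was 0.63 on the log2 scale for Snapc1 (adjusted p = 6.9e-05), 0.64 for Snapc4 (adjusted p = 4.3e-09) and -0.81 for Gtf3a (adjusted p = 1.4e-11). Both 72 h libraries lay beyond both 24 h libraries for each. Over all tested genes both lay below for 40.2% and above for 41.8%. In the RA table the effect of RA differed between depleted and DMSO cells, by the interaction term, for Brf1 (-0.56, adjusted p = 0.00417) and Gtf3a (-0.69, adjusted p = 5.7e-05). That term called 18% of tested genes lower and 13.7% higher. The Brf1 difference was lost without dTAG-V1 and RA replicate 1 (-0.33). Groups had 2 samples, too few for a test of samples that stand apart.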

How the results depend on the processing

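Of 2266 values of single genes under an alternative, 62 lost a call, 39 gained one and 0 were called with the opposite sign. A further 106 changed sign with neither value called, the largest of them at 0.57 on the log2 scale. The number of members called lower in TT-seq went from 0 to 1 at 2 h and from 1 to 2 at 6 h without the filter, and the same with the replicate block, by Snapc3 each time (block: -0.58, adjusted p = 0.0357, and -0.55, adjusted p = 0.0337). The 6 h call of Snapc4 was lost without any 1 of its libraries. Such a fit has 1 library in that group, and calls were lost over all tested genes too. A call lost in this way therefore does not set a gene apart. Over all genes the block moved the counts called lower in TT-seq from 435 to 662 at 2 h, from 506 to 956 at 6 h and from 730 to 1214 at 24 h. It changed no other call of a member. With library size alone, members called lower went from 1 to 0 at 48 h in RNA-seq and from 2 to 1 in the interaction, and members called higher at 48 h from 0 to 1. With DESeq2 the count lower at 48 h was 0. With the TT-seq thresholds, the members called lower went from 0 to 1 at 24 h, from 1 to 2 at 72 h, from 0 to 1 before RA, from 1 to 2 after RA, from 0 to 4 for RA in DMSO cells and from 1 to 3 for RA in depleted cells, and those called higher from 0 to 1 at 48 h and from 0 to 2 at 72 h. The TT-seq thresholds test against no change rather than 1.5-fold, and the cause of the other shifts was not tested. Members with a peak numbered 3 within 500 bp of the TSS and 2 among peaks at or above the median. Counts were low for some small RNA genes, where Rnu5g had 4 and 11 counts in the DMSO libraries and Rny1 21 and 16 counts at 24 h.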
